A study of Sus scrofa with 8 samples.

Results

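The HOXB cluster is 1 of the 4 groups of HOX genes in mammals and lies on pig chromosome 12. Its members were taken by name from the RefSeq annotation of Sscrofa11.1, which names 8 of the 10 genes looked for among 19487 protein-coding genes on chromosomes 1 to 18 and X: HOXB1, HOXB2, HOXB3, HOXB5, HOXB6, HOXB7, HOXB8 and HOXB13. HOXB4 and HOXB9 carry no record under these symbols and were not analysed by name. Peaks of H3K4me3, H3K27ac and CTCF were read at the start of each gene (TSS), across the cluster and up to 200 kb beyond each of its edges. All 6 libraries came from untreated pig embryonic fibroblasts (PEFs), which were taken from Large White fetuses at 35 days of age and cultured for 24 h, with 2 replicates for each of the 3 targets. The peaks were called against input libraries, 1 for the histone marks and 1 for CTCF, which were not analysed here. The labels do not say whether the replicates came from separate fetuses or cultures, so their spread may be technical. No other condition was profiled, and an exact two-sided permutation test of 2 libraries against 2 cannot give a p below 0.333, so the values below are a description of these libraries.

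HOX genes encode homeodomain transcription factors that give cells of the embryo their position along the head to tail axis. Within a cluster, the genes at one end (HOXB1, HOXB2) act in the hindbrain, and those towards the other end act progressively further back, with HOXB13 acting at the tail end. In many tissues a HOX cluster is divided between a stretch of active chromatin and a stretch held silent by Polycomb proteins, and fibroblasts are known to keep a HOX pattern of the body site they came from. H3K4me3 marks promoters, H3K27ac marks active promoters and enhancers, and CTCF is a DNA-binding protein at the borders of chromatin domains, whose motif has a direction.

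In the assembly the cluster covers chr12:24784953-24950661, or 165.7 kb, from the 3′ end of HOXB1 to the start of HOXB13, and all 8 genes are on the minus strand. In gene order, HOXB2 begins 14.1 kb, HOXB3 41.2 kb, HOXB5 63.3 kb, HOXB6 67.1 kb, HOXB7 78.3 kb, HOXB8 93.3 kb and HOXB13 164.3 kb from the start of HOXB1. The annotated start is not always near the coding sequence. The coding start lay 20.8 kb from the start in the HOXB3 record, 11.3 kb in the HOXB8 record, and between 0 and 1.92 kb in the other 6. The HOXB1 record begins at its first coding base, so that no transcript start upstream of it is annotated. In other mammals HOXB4 lies between HOXB3 and HOXB5, and HOXB9 lies between HOXB8 and HOXB13. Whether the far start of the HOXB3 or HOXB8 record belongs to that gene or to an unnamed neighbour cannot be told apart with peaks alone.

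The deposited lists held between 37932 and 81164 peaks per library and covered between 1.13% (CTCF replicate 1) and 5.96% (H3K27ac replicate 2) of chromosomes 1 to 18 and X. The lists hold no read counts, so no depth was computed. The study's summary of its libraries lists far fewer reads for CTCF replicate 1 than for the other 5 libraries. The H3K4me3 replicates differed in scale, with a median fold enrichment of 9.27 in replicate 1 and 6.16 in replicate 2, and the fold enrichment of a peak is the value at its summit, over the control. The fibroblast label was checked at the starts of marker genes. Both histone marks were present in both replicates at 14 of 14 annotated fibroblast markers, against 1 of 7 epithelial, 0 of 5 endothelial, 1 of 5 blood, 0 of 4 annotated neural, 1 of 4 muscle and 1 of 5 liver markers. A mark at a start is not an expression level, and epithelial markers carried H3K4me3 without H3K27ac at 6 of 7 starts. Over all protein-coding genes, 58.9% carried both marks and 8.25% H3K4me3 only.

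The sequences on which the results turn are those bound by CTCF, the 2 miRNA genes and the stretches upstream of the starts without H3K27ac. CTCF peaks shared by both replicates numbered 9 in the cluster, and each held a match to a 19 bp CTCF motif within 100 bp of a summit. The motif was learned from other chromosomes of the same replicate 1 library, and its consensus was GGCCACTAGAGGGCGCTAT. The 9 sites are shown in order from HOXB1 to HOXB13, read 5′ to 3′ on the strand of the motif, with the motif in capitals and 8 bases on each side, so that the core and its changes can be compared.
CTCF site 7, start of LOC102166259, motif at chr12:24839489-24839507, minus strand: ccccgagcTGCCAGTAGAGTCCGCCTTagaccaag
CTCF site 8, HOXB5 exon, motif at chr12:24848070-24848088, minus strand: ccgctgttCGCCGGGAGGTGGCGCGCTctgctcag
CTCF site 9, upstream of HOXB6, motif at chr12:24856622-24856640, plus strand: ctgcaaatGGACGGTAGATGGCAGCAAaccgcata
CTCF site 10, HOXB8 exon, motif at chr12:24866679-24866697, plus strand: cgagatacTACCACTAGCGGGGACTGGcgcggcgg
CTCF site 11, HOXB8 intron, motif at chr12:24872487-24872505, minus strand: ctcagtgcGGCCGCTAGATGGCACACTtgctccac
CTCF site 12, LOC100523635 exon, motif at chr12:24890009-24890027, plus strand: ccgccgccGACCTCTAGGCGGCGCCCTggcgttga
CTCF site 13, between LOC100523635 and HOXB13, motif at chr12:24916153-24916171, plus strand: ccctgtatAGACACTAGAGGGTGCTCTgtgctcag
CTCF site 14, between LOC100523635 and HOXB13, motif at chr12:24920905-24920923, plus strand: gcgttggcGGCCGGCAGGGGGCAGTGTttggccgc
CTCF site 15, downstream of HOXB13, motif at chr12:24946390-24946408, plus strand: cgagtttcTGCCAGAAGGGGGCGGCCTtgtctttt

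The site numbers continue those of the flank before HOXB1, which holds sites 1 to 6. The site with the highest fold enrichment is site 13 and that with the lowest is site 10 among these 9. The highest motif score of the 9 was that of site 15, 21.88 bits, and the lowest that of site 7, 9.20 bits.

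The annotated miRNA genes of the cluster are MIR10A, between HOXB3 and HOXB5, and MIR196A-1, beyond HOXB8. Their mature products are shown with the seed (bases 2 to 8, which pair with target RNAs) in capitals. No seed is shared between them.
ssc-miR-10a-5p, chr12:24833694-24833715, minus strand: uACCCUGUagauccgaauuugu
ssc-miR-10a-3p, chr12:24833654-24833674, minus strand: cAAAUUCGuaucuaggggaau
ssc-miR-196a, chr12:24886364-24886385, minus strand: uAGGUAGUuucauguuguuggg

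Upstream sequence is shown for the 2 starts without H3K27ac, HOXB1 with neither mark and HOXB13 with H3K4me3 alone. Each is the 300 bases before the annotated start on the minus strand of Sscrofa11.1, with CpG dinucleotides, which are dense in most mammalian promoters marked by H3K4me3, in capitals.
HOXB1 upstream, chr12:24786378-24786677: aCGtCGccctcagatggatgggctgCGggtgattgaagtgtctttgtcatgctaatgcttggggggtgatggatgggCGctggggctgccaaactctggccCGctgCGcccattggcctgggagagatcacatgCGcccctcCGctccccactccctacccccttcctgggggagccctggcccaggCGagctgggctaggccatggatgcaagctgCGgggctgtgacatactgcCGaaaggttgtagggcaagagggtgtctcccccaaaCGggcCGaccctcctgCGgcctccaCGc
HOXB13 upstream, chr12:24950662-24950961: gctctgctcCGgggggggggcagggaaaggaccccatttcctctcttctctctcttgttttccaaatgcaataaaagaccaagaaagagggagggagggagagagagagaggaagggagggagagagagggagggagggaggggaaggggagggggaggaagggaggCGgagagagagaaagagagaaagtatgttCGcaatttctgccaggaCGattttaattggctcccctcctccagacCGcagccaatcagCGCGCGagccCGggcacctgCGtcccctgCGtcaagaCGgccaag

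The HOXB1 stretch held 15 CpG and the HOXB13 stretch 12. The median was 14 over 19484 genes, 20 over genes with both marks, 18 over genes with H3K4me3 only and 4 over genes with neither mark. In both stretches the CCAAT box (by those letters, on either strand) was found, as in 35.8% of these stretches over all genes. The TATA box (TATAAA, 11.8% of all genes) and the GC box (GGGCGG, 47.7%) were found in neither. The upstream stretches of the other 6 members are not compared here.

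The HOXB genes were first compared by the marks within 1 kb of their starts. H3K4me3 was present in both replicates at 7 of 8 starts (68.9% of all protein-coding genes), with HOXB1 as the exception. H3K27ac was present in both replicates at 6 of 8 starts (60.7% of all genes), with HOXB1 and HOXB13 as the exceptions. CTCF was present at 0 of 8 starts in either replicate, where 17.9% of all genes had a CTCF peak in both. HOXB2, HOXB3, HOXB5, HOXB6, HOXB7 and HOXB8 therefore carried both marks, 6 of 8 against 58.9% of all genes, HOXB13 carried H3K4me3 only (8.25% of all genes) and HOXB1 carried neither (27.5%). No member carried H3K27ac only (1.45% of all genes), differed between replicates (3.87%) or carried both marks and CTCF (14.4%). With 8 genes, these shares lie near the background, and nothing is read from the counts. In gene order, the 6 starts with both marks were consecutive among the named genes, and the exceptions were the outermost named gene at each end. With a −log10 q-value of at least 5, H3K27ac was lost at HOXB3, and 5 starts, no longer consecutive, carried both marks.

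HOXB1, which patterns the hindbrain, had no peak of any target within 1 kb of its start in any library. The nearest H3K4me3 peak was 3518 bp away in replicate 1, a weak one with a fold enrichment of 3.16, and 8193 bp away in replicate 2. H3K27ac came no nearer than 7398 bp in replicate 1 and 6631 bp in replicate 2, and CTCF no nearer than 46770 bp. On its 3′ side, an H3K27ac peak at chr12:24777032-24778979 had a fold enrichment of 15.2 in replicate 1 and, at nearly the same place, 22.5 in replicate 2. H3K4me3 was called there in replicate 1 only, with a fold enrichment of 3.21.

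HOXB2, a hindbrain gene next to HOXB1, lay in 1 peak of each mark that covered the whole gene. The H3K4me3 peak was 8.03 kb wide with a fold enrichment of 33.1 in replicate 1 and 8.84 kb wide with 18.9 in replicate 2. The H3K27ac peak was 10.7 kb wide with a fold enrichment of 22.2 in replicate 1 and 10.9 kb wide with 28.5 in replicate 2. The 4 summits lay 1744 to 1839 bp inside the gene from the start of the longer transcript, and 83 to 178 bp from the start of the shorter one. A long non-coding RNA, LOC106505099, begins 7 bp from the start of HOXB2 on the other strand, so the same peaks stand at both starts.

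At the HOXB3 start, the peaks were either weak or had their summit far away. In replicate 1 its start lay between H3K4me3 peaks with fold enrichments of 3.55 and 4.37, the higher of them in the lowest 1.17% of genes with a peak. In replicate 2 a peak 33.5 kb wide began 89 bp away, and its fold enrichment of 16.2 belongs to a summit 29917 bp off. H3K27ac showed the same in reverse, with a 34.9 kb peak over the start in replicate 1 (fold enrichment 20.1, summit 31078 bp off) and a peak of 1096 bp in replicate 2 (3.35, summit 370 bp off). Higher H3K27ac summits stood around the coding start of HOXB3, with fold enrichments of 16.7 and 21.4 at 2537 and 2504 bp from it, and H3K4me3 reached 21.8 (chr12:24808223-24811152) and 12.03 in the same stretch. In the 2 libraries whose peaks at the annotated start were separate from the wide peak (H3K4me3 replicate 1 and H3K27ac replicate 2), the peaks near the coding start were higher. In the other 2 the level at the start itself cannot be read from the peak lists.

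HOXB5 and HOXB6, trunk genes whose records are next to each other, shared 1 wide peak of each mark. The H3K4me3 peak over both starts was 22.8 kb wide with a fold enrichment of 18.4 in replicate 1 and 33.5 kb wide with 16.2 in replicate 2. The H3K27ac peak was 34.9 kb wide with 20.1 and 25000 bp wide with 17.8. All 4 summits lay beyond HOXB6, 3980 to 5757 bp from its start and 7835 to 9612 bp from that of HOXB5. Fold enrichment was thus not measured at either start itself. By width, the H3K4me3 peak ranked 2 in both replicates, among 37932 and 43516 peaks. The widest H3K4me3 peak was another HOX peak in each, 52.2 kb over HOXC4 to HOXC9 in replicate 1 and 42.3 kb over HOXA3 to HOXA10 in replicate 2. For H3K27ac the peak ranked 22 and 45, and the widest peak, 63.6 and 63.7 kb, lay at KMT2E.

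HOXB7 had the highest H3K27ac of the 8 starts in both replicates (28.9 against 28.5 at HOXB2 in replicate 2), with fold enrichments of 25.1 and 28.9, and its H3K4me3 fold enrichments were 45.1 and 31.8. These summits lay 187 to 491 bp from the start, inside an exon. The annotated start of the HOXB8 record had the highest H3K4me3 of the 8 starts in replicate 1, 61.2. It had the next highest after HOXB7 in replicate 2, 26.3, with summits 129 and 32 bp away. Its H3K27ac fold enrichments were 15.0 and 13.2, lower than those of HOXB2 and HOXB7 in both replicates. They were also lower than that of the wide peak shared by HOXB5 and HOXB6, whose summit lies away from both starts. At the coding start of HOXB8, 11.3 kb from the annotated start, the peaks within 1 kb were those of HOXB7. The values given for HOXB8, here and below, are those at its annotated start, which may belong to an unnamed neighbour such as HOXB9. They are not values of a start near the HOXB8 coding sequence.

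HOXB13, which acts at the tail end of the embryo and in the prostate, carried an H3K4me3 peak with fold enrichments of 8.99 and 7.25. Its summits lay 15 and 145 bp from the start. The peak was 1146 and 1373 bp wide, where the median H3K4me3 peak was 1185 and 1195 bp wide. Among genes with an H3K4me3 peak, these fold enrichments stood at percentiles 4.32 and 5.54. The nearest H3K27ac peak was 57904 bp away in replicate 1 and 57748 bp away in replicate 2, and in both it was weak (2.63 and 3.04).

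**Figure D1:**
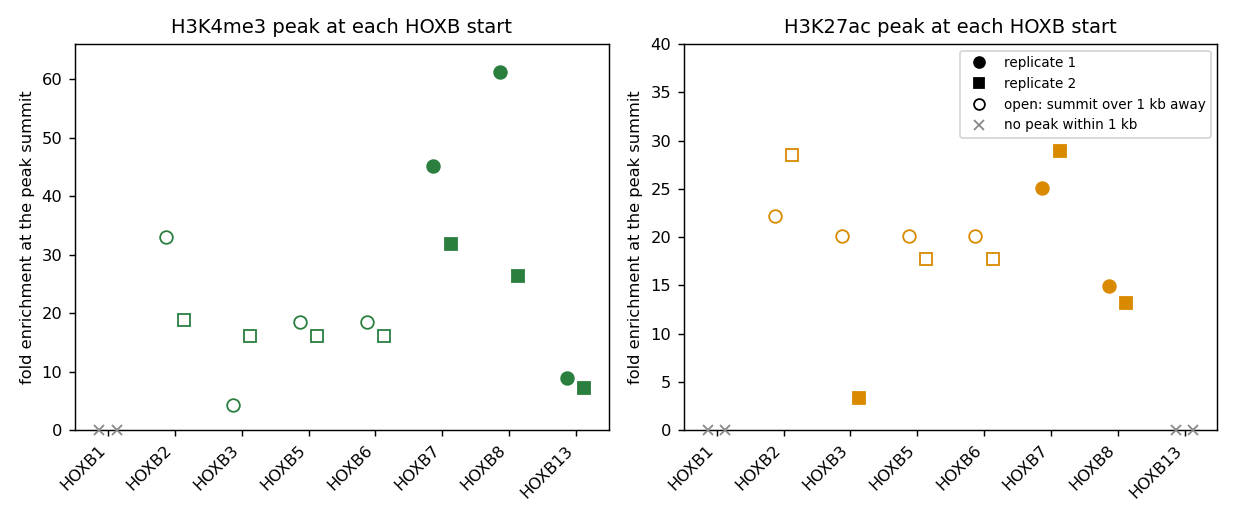
Fold enrichment (vertical axis, ratio over the control at the peak summit) of the highest H3K4me3 (left) and H3K27ac (right) peak within 1 kb of each annotated HOXB start, in gene order from HOXB1 to HOXB13. Circles are replicate 1, squares replicate 2, open symbols have their summit over 1 kb from the start of the gene record, and crosses mark starts with no peak. HOXB7 and the annotated start of the HOXB8 record have filled symbols for both marks in both replicates.

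In H3K4me3, the order of the starts by fold enrichment was not the same in the 2 replicates. HOXB8, HOXB7 and HOXB2 had ranges of 26.3 to 61.2, 31.8 to 45.1 and 18.9 to 33.1, which overlap between replicates that differ in scale. Within each replicate HOXB7 and HOXB8 were both higher than HOXB2, whereas the order of HOXB7 and HOXB8 turned. HOXB13 lay below HOXB2, HOXB7, HOXB8 and the wide peak shared by HOXB5 and HOXB6 in both replicates. Its order against HOXB3 turned between replicates. In H3K27ac, HOXB7 and HOXB2 overlapped (25.1 to 28.9 and 22.2 to 28.5), and HOXB8 (13.2 to 15.0) lay below both. The plot of fold enrichment by gene shows that the summits within 1 kb of the start in both replicates were those of HOXB7, HOXB8 and HOXB13 for H3K4me3, and those of HOXB7 and HOXB8 for H3K27ac. Counted by summits against the start of the gene record, H3K4me3 was thus at 3 starts and H3K27ac at 2. HOXB2 was left out of this count, although its summits lay near the start of its shorter transcript.

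The marks formed a block along the cluster. Its limits were set by rule, as the first base of the peak over the HOXB2 record and the last base of the peak over the HOXB8 start. By this rule the block began between positions 24794570 and 24795161 and ended between 24880929 and 24881156 over the 4 histone libraries. It was 85.77 to 86.58 kb long. H3K4me3 peaks went on beyond it, the next one from 24881889 in replicate 2, so the far limit is not the end of H3K4me3. Peaks covered 74.4% ± 1.31 of HOXB2 to HOXB8 for H3K4me3 and 70.3% ± 1.02 for H3K27ac (mean ± SD, n = 2). In HOXB1 to HOXB2 they covered 16.2% ± 3.54 and 19.9% ± 1.72, most of it the ends of the HOXB2 peaks.

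Beyond HOXB8 the marks parted. Between HOXB8 and HOXB13, H3K4me3 covered 23.9% ± 4.94 and H3K27ac 2.84% ± 0.112, and the HOXB13 record was covered at 50.3% ± 10.8 by H3K4me3 and at 0% by H3K27ac in both replicates (mean ± SD, n = 2). Of the base pairs under H3K4me3, 86.4% and 85.3% were also under H3K27ac in HOXB2 to HOXB8, against 12.7% and 9.33% between HOXB8 and HOXB13. Over chromosomes 1 to 18 and X the shares were 71.9% and 70.4%. In each stretch the replicates lay close together, and the shares of the 2 stretches did not overlap.

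**Figure D2:**
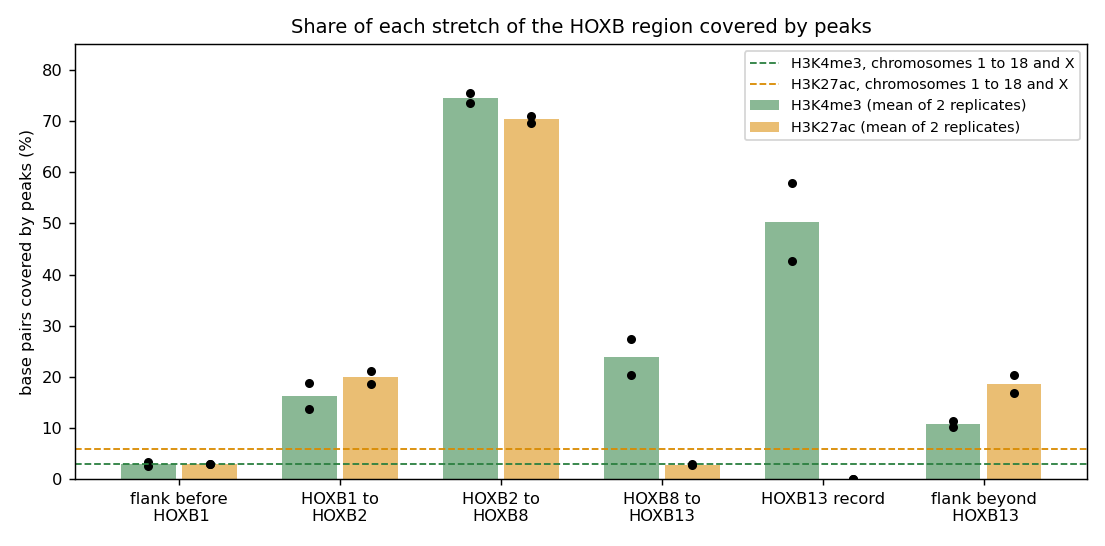
Share of base pairs covered by H3K4me3 (green) and H3K27ac (orange) peaks (vertical axis, percent) in consecutive stretches from the flank before HOXB1 to the flank beyond HOXB13. Bars are means of 2 replicates, points the replicates, and dashed lines the mean share over chromosomes 1 to 18 and X. Both marks peak in HOXB2 to HOXB8 (74.4% and 70.3%), and H3K4me3 alone stays above its dashed line between HOXB8 and HOXB13 (23.9%).

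The H3K4me3 peaks beyond HOXB8 fell into groups. Around MIR196A-1 and LOC100523635, peaks in both replicates had fold enrichments of 3.33 to 13.3 in replicate 1 and 2.91 to 7.15 in replicate 2. H3K27ac was called in this stretch at 1 weak peak per replicate, with fold enrichments of 2.63 and 3.04. A stretch with no H3K4me3 peak in replicate 1 followed, from 24901598 to 24940735, in which replicate 2 held 2 weak peaks (2.91 and 3.70). Near HOXB13, the peak at chr12:24940735-24941740 had a fold enrichment of 32.7 in replicate 1 and 16.9 in replicate 2, and lay 9331 and 9335 bp from the HOXB13 start by its summits. The peak at chr12:24943608-24948046 had 17.8 and 15.4, with its summits 4478 and 4590 bp from that start. Both had their summits on the 3′ side of HOXB13, outside any annotated gene, and were higher than the peak at the HOXB13 start (8.99 and 7.25) in both replicates.

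Many H3K4me3 summits inside the cluster, strong and weak, lay away from annotated starts. Of 21 H3K4me3 summits in the cluster in each replicate, 4 lay within 1 kb of an annotated start of any gene or transcript, and of 10 and 12 H3K27ac summits 3 and 4 did. The H3K4me3 summit at the HOXB13 start was counted in replicate 2 only, since in replicate 1 it lay 15 bp outside the cluster. The H3K4me3 summits over 1 kb from any start had fold enrichments of 3.33 to 47.0 in replicate 1 and 2.91 to 16.9 in replicate 2. The share of such summits over all chromosomes was not computed. The highest such H3K4me3 peak in replicate 1, at chr12:24829670-24834424, had a fold enrichment of 47.0 with its summit between HOXB3 and MIR10A, 1727 bp from the start of MIR10A. In replicate 2 the same stretch was part of the 33.5 kb peak, and in H3K27ac it was a peak of its own in replicate 2 (15.1) and part of the 34.9 kb peak in replicate 1. A peak in an intron of the HOXB8 record (chr12:24871724-24873968) had an H3K4me3 fold enrichment of 27.9 and 16.1, with H3K27ac weak in replicate 1 (3.51) and not called in replicate 2. The starts of genes the annotation does not name, such as HOXB4 and HOXB9, were not analysed under those names. The far starts of the HOXB3 and HOXB8 records may be such starts.

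**Figure D3:**
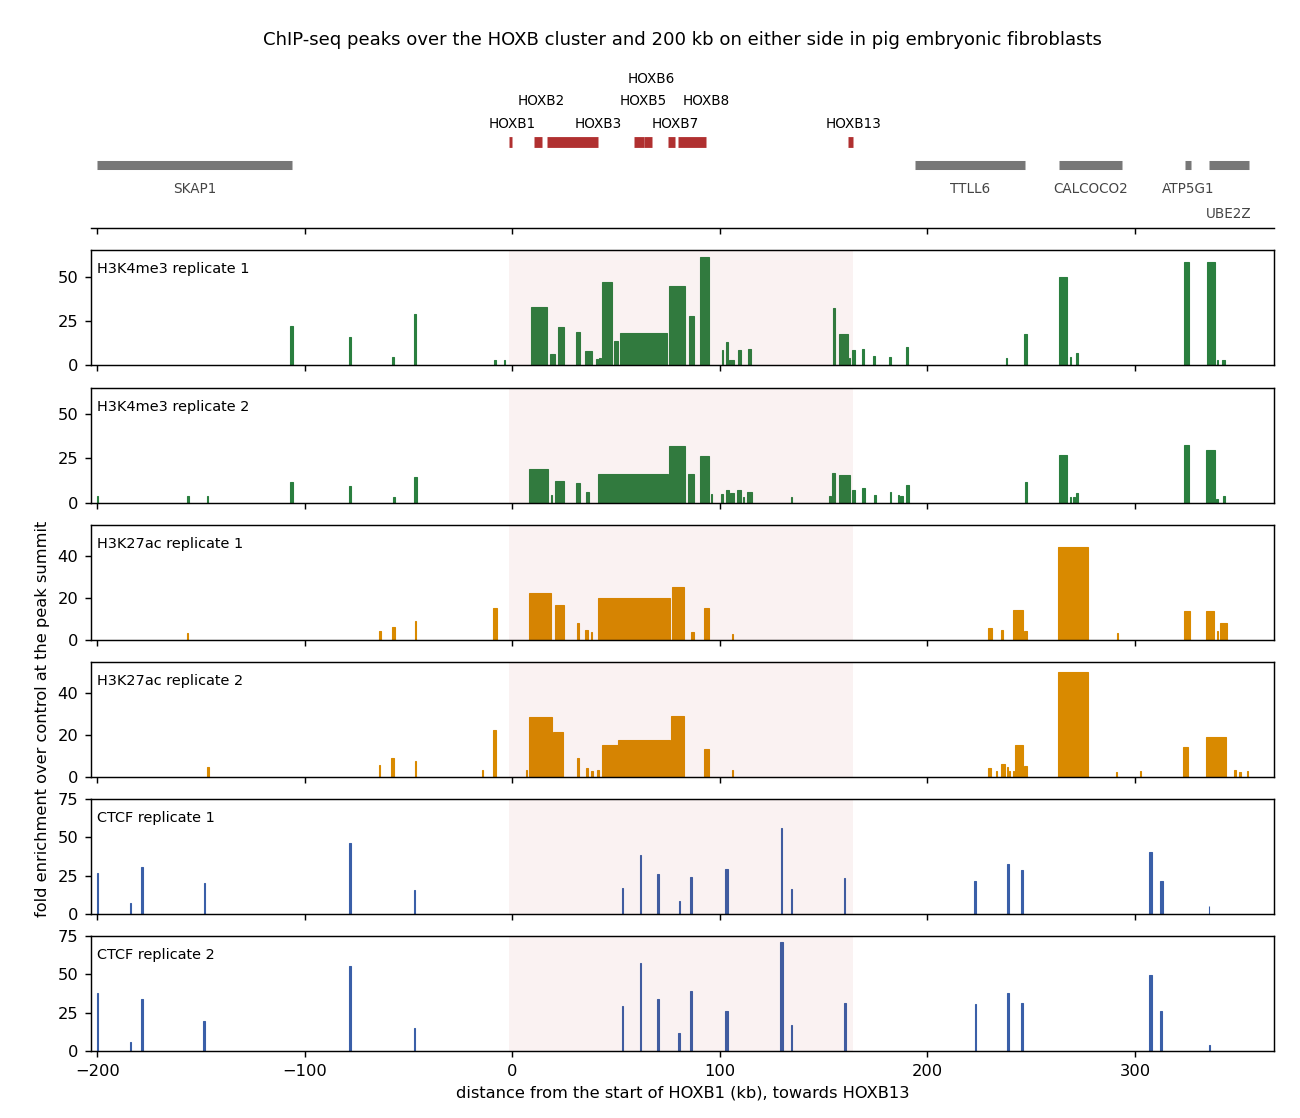
Peaks of H3K4me3 (green), H3K27ac (orange) and CTCF (blue) in 2 replicates each, drawn to scale by position (horizontal axis, kb from the HOXB1 start towards HOXB13) and by fold enrichment at the summit (vertical axis, ratio over the control), with gene records above and the cluster shaded. Both histone marks fill HOXB2 to HOXB8, whereas H3K27ac is nearly absent from HOXB8 to HOXB13 in both replicates (covering 2.84%) and CTCF has no peak between HOXB1 and HOXB3.

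Coverage was next set against the rest of the genome. Over the whole cluster, H3K4me3 peaks covered 46.8% and 51.2% of base pairs (49.0% ± 3.11, n = 2) and H3K27ac peaks 38.1% and 37.5% (37.8% ± 0.434). Of 14423 windows of the same length along chromosomes 1 to 18 and X, 0 exceeded the cluster in H3K4me3 in either replicate, where the median window was covered at 1.39% and 1.86%. For H3K27ac 150 and 175 windows exceeded it, and for CTCF, which covered 4.31% and 5.54%, 191 and 158 did. The windows were laid end to end, whereas the HOXB interval was set by its genes, so a window that straddles another HOX cluster holds part of it only. H3K4me3 covered 76.7% and 81.5% of HOXA (107.0 kb) and 70.4% and 73.4% of HOXC (117.2 kb). Windows placed on these clusters were not measured, so the count of 0 does not rank HOXB above them.

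The 200 kb on either side differed from the cluster and from each other. Before HOXB1, peaks covered 3.01% ± 0.503 for H3K4me3 and 2.96% ± 0.00566 for H3K27ac, where the shares over chromosomes 1 to 18 and X were 2.69% and 3.19% for H3K4me3 and 5.92% and 5.96% for H3K27ac. Beyond HOXB13 they covered 10.8% ± 0.827 and 18.7% ± 2.45. H3K4me3 was present in both replicates at the starts of 5 of 5 protein-coding genes in the flanks (68.9% of all genes), and H3K27ac at 4 of 5 (60.7%). With 5 genes, nothing is read from these counts.

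The only protein-coding start before HOXB1 was that of SKAP1, an adaptor protein of T cell signalling, which had H3K4me3 (22.1 and 11.5) and no H3K27ac in either replicate. Beyond HOXB13, TTLL6, a tubulin-modifying enzyme, had H3K4me3 of 17.8 and 11.6 and H3K27ac of 4.19 and 4.98. CALCOCO2, an autophagy receptor, had H3K4me3 of 49.8 and 26.9 and an H3K27ac peak 14.4 and 14.8 kb wide with fold enrichments of 44.2 and 50.3, at percentile 99.9 of all H3K27ac peaks in both replicates and above every HOXB gene. ATP5G1, a subunit of the mitochondrial ATP synthase, had H3K4me3 of 58.4 and 32.8 and H3K27ac of 13.7 and 14.1. UBE2Z, a ubiquitin-conjugating enzyme, had H3K4me3 of 58.5 and 29.6 and H3K27ac of 13.7 and 19.1, and was the 1 flanking gene with CTCF at its start (5.25 and 3.56, both weak).

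The 5 other genes annotated inside the cluster are non-coding. LOC106505099 shares the HOXB2 peaks. MIR10A, the gene of miR-10a, lay under H3K4me3 of 47.0 and 16.2 and H3K27ac of 20.1 and 15.1. Of these, 16.2 and 20.1 are the single values of the 33.5 kb and 34.9 kb peaks. Their summits lie beyond HOXB6, so they are not levels at MIR10A. LOC102166259, a long non-coding RNA that runs through HOXB5 and HOXB6 on the other strand, had the wide peaks of both marks at its start and was the 1 annotated gene of the cluster with CTCF within 1 kb of its start (17.1 and 29.1). MIR196A-1, the gene of miR-196a, a miRNA known to target HOXB8, had H3K4me3 within 1 kb (8.76 and 4.77) and no H3K27ac. LOC100523635, an RNA of unspecified class, had H3K4me3 of 9.23 and 6.14 at its start and no H3K27ac. Both marks were thus at the 3 non-coding starts between HOXB2 and HOXB6, largely as the same peaks that cover HOXB starts, and H3K4me3 alone at the 2 beyond HOXB8.

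CTCF peaks were shared by both replicates at 21 sites in the cluster and its flanks, 9 in the cluster and 6 in each flank, and no CTCF peak there was called in 1 replicate only. This is 54.3 sites per Mb in the cluster and 30 per Mb in each flank, against 16 per Mb over chromosomes 1 to 18 and X (38239 shared sites). All 21 held the motif, where 88.9% and 87.3% of CTCF peaks on chromosomes not used to learn it did, and 12.3% and 12.5% of sequences 1 kb from those summits. At a stricter motif p of 1e-05, 14 of the 21 held it, against 71.7% and 68.5% of peaks on those chromosomes. The 21 sites were shared by both replicates and searched at the summits of both. The peaks on those chromosomes were all peaks of a library, searched at 1 summit each, so the shares are not like for like.

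Within the cluster, the sites began at 53.1 kb from the HOXB1 start, and no CTCF peak was called between HOXB1 and HOXB3 in either replicate. Site 8, in an exon of HOXB5, had fold enrichments of 38.2 and 57.4, and its summit lay 364 and 357 bp from the HOXB5 coding start and 1556 and 1563 bp from the annotated start. Site 9 (25.9 and 33.7) lay 3100 and 3128 bp upstream of HOXB6. Site 10 (8.37 and 11.7), in an exon of HOXB8, lay 2042 and 2010 bp upstream of HOXB7. Site 11 (23.9 and 39.4) lay in an intron of the HOXB8 record.

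Of the sites beyond HOXB8, site 12 (29.3 and 26.2) lay in an exon of LOC100523635. Site 13 had fold enrichments of 55.8 and 71.0, at percentiles 96.9 and 98.7 of all CTCF peaks, and lay in the stretch poor in histone peaks, 14364 bp from the nearest annotated start. Site 14 (16.1 and 17.2) was the next towards HOXB13. Site 15 (23.6 and 31.0) lay on the 3′ side of HOXB13, inside the H3K4me3 peak described above. H3K4me3 overlapped 7 of the 9 cluster sites in both replicates and H3K27ac 4 of 9, and all 4 of these lay between the starts of HOXB3 and HOXB8. In the flanks, H3K4me3 overlapped 2 of 6 sites before HOXB1 and 1 of 6 beyond HOXB13 in both replicates, and H3K27ac 1 of 6 and 2 of 6.

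The direction of the motifs changed along the cluster. Among the 9 sites, 6 motifs were on the plus strand and 3 on the minus strand, on which the HOXB genes lie. Sites 7 and 8 pointed to minus, sites 9 and 10 to plus, site 11 to minus, and sites 12 to 15 all to plus, up to the gene HOXB13. Beyond HOXB13 the sequence was minus, plus, plus, minus, minus and minus, so that the plus sites 12 to 15 faced a minus site, site 16, which lies in an intron of TTLL6. Before HOXB1 it was plus, plus, minus, plus, minus and plus. Contacts between these sites were not analysed here. The nearest CTCF summit to the far limit of the histone block, as set above, was site 11, 8447 to 8674 bp inside it. The nearest to the limit before HOXB2 was site 7, 44328 to 44919 bp inside it. Neither limit lay at a CTCF peak, and H3K4me3 peaks went on beyond the far one.

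**Figure D4:**
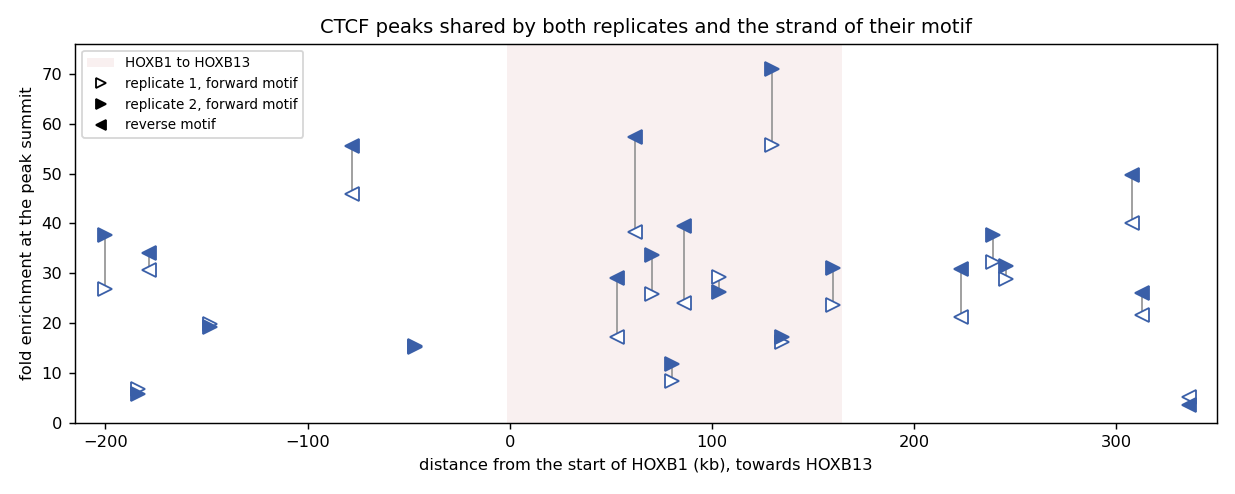
CTCF sites shared by both replicates, by position (horizontal axis, kb from the HOXB1 start towards HOXB13) and fold enrichment at the summit (vertical axis, ratio over the control), with open symbols for replicate 1 and filled symbols for replicate 2 joined by a line. Triangles point right for a motif on the plus strand and left for the minus strand. The highest site, site 13 (55.8 and 71.0), is one of 4 plus-strand sites in a row that end the shaded cluster.

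The other HOX clusters were described in the same way. H3K4me3 covered 79.1% ± 3.41 of HOXA, 71.9% ± 2.15 of HOXC and 66.1% ± 4.29 of HOXD, against 49.0% ± 3.11 of HOXB, and H3K27ac covered 71.5% ± 0.930, 58.8% ± 1.01 and 54.0% ± 0.0788, against 37.8% ± 0.434 (mean ± SD, n = 2). HOXB was the lowest in both marks in each replicate, and also the longest (165.7 kb against 96.0 to 117.2 kb). Ended at HOXB8 instead of HOXB13, an alternative chosen after seeing the data, it was covered at 67.2% and 64.0%. Both marks were present at 10 of 11 annotated HOXA starts, 7 of 9 HOXC starts and 5 of 8 HOXD starts, against 58.9% of all genes. Over all genes, 8.25% carried H3K4me3 only, 27.5% neither mark and 17.9% CTCF, and nothing is read from the counts in these small sets. H3K4me3 alone, as at HOXB13, was found at HOXA13, HOXC12 and HOXD12, whereas HOXC13 and HOXD13, named here after their values were seen, carried both marks, with weak H3K27ac (3.19 and 2.51, and 3.44 and 5.37). Neither mark, as at HOXB1, was found at HOXC11 and HOXD3, and the replicates differed at HOXD10. CTCF was at 3, 2 and 1 starts in HOXA, HOXC and HOXD, and at 0 in HOXB, while the density of shared CTCF sites was of the same order (56.1, 59.7, 72.9 and 54.3 per Mb).

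**Figure D5:**
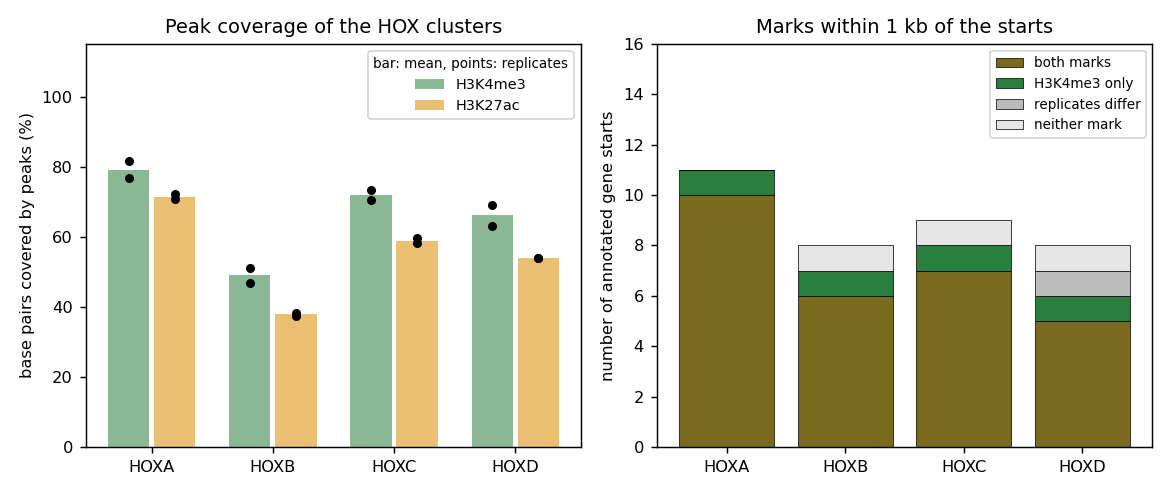
Left, share of each HOX cluster covered by H3K4me3 (green) and H3K27ac (orange) peaks (vertical axis, percent), with bars for the mean of 2 replicates and points for the replicates. Right, number of annotated gene starts in each mark state within 1 kb. HOXB has the lowest coverage of both marks (49.0% and 37.8%), with both marks at 6 of 8 starts.

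Genes that act with or upstream of HOX genes were read at their starts as well. The TALE homeodomain proteins (PBX, MEIS and PKNOX), which bind DNA together with HOX proteins, carried both marks at 8 of 9 starts, with neither at PKNOX1. Subunits of Polycomb complexes, which silence HOX genes, carried both at 21 of 22, with H3K4me3 alone at CBX7. Genes listed under Trithorax and the MLL complex carried both at 12 of 12. Of 12 annotated genes of the retinoic acid pathway, which induces HOX genes in the embryo, 7 carried both marks, ALDH1A2, CYP26A1 and CRABP1 carried H3K4me3 only, and RXRA and RXRG carried neither. The CDX factors, which activate trunk HOX genes, had no start with both marks: CDX1 had H3K27ac only, CDX2 H3K4me3 only and CDX4 neither. The background for both marks is the 58.9% of all genes given above, and these counts are a description with no test.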

How the data were processed

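ChIP-seq peaks of H3K4me3, H3K27ac and CTCF in PEFs were analysed from 6 deposited peak lists, 1 per library, with 2 replicates per target. The authors aligned reads to Sscrofa11.1 with Bowtie2 and called peaks per library with MACS2 against an input, with tool versions not given in the sources used here. As deposited, each peak has a MACS2 score, the fold enrichment (a ratio of signal over the control at the summit), the −log10 p-value, the −log10 q-value and the summit offset. The score and p-value were not used. The methods state a q-value limit of 0.01, whereas 0.056% to 3.06% of the deposited peaks per library had a q-value above it. Wide peaks carry a single fold enrichment, so a start under such a peak has no value of its own. The lists hold no read counts, and no interval could be given.

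A peak was counted at a gene when it overlapped, by 1 bp or more, the 1 kb on either side of the start of the gene record in the RefSeq annotation of Sscrofa11.1. The rule for named genes was membership of the cluster or its flanks, and the members of each gene list in a state other than that of most of the list. The members and lists were chosen with earlier results of these data known. A start was called for a mark when both replicates had a peak, and replicates were treated as unpaired. No test was made, since all cells were untreated and of 1 kind. The CTCF motif came from the 600 strongest replicate 1 peaks on autosomes with odd numbers, by an expectation maximisation script, and was searched within 100 bp of summits at p 0.0001 on both strands. Sequences were read from the RefSeq Sscrofa11.1 genome, and the miRNA positions from its annotation. Upstream stretches are reported for HOXB1 and HOXB13, and those of the other 6 members are not reported here. Overlap, coverage and motif steps were tested on simulated data. Python 3.11.15, numpy 2.4.6, pandas 2.3.3, pysam 0.24.0 and matplotlib 3.10.9 were used. Alternatives covered the start window, the summit, a stricter q-value, coverage in both replicates, the cluster limits, the flank length, the motif threshold and each replicate alone.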

Additional observations from a re-analysis of the deposited data

How the results depend on the processing

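Of 71 alternative values over 10 results, 12 moved, by more than the spread between replicates for coverage or by more than 1.5 times for counts, and 59 did not. The latter include losses. At a motif p of 1e-05, 14 of 21 CTCF sites held the motif. H3K27ac was lost at HOXB3 with a −log10 q-value of at least 5, which left 5 starts. H3K4me3 was lost at UBE2Z with the summit within 1 kb of the start, which left 4 of 5 flanking protein-coding genes. Fewer HOXB starts were counted with the summit, not only the peak, within 1 kb of the start of the gene record. H3K4me3 was then at 3, H3K27ac at 2 and both marks at 2, because the wide peaks have their summits over 1 kb from that start. Those at HOXB2 lay 83 to 178 bp from the start of its shorter transcript, which was not used in this count. CTCF was at 4 starts with a window of 5 kb (HOXB5, HOXB6, HOXB7 and HOXB13) and at 1 within 1 kb of the coding start (HOXB5). Coverage of the cluster by H3K4me3 was 44.32% for base pairs covered in both replicates and 67.15% for HOXB1 to HOXB8. H3K27ac covered 36.67% with a −log10 q-value of at least 5, 35.68% in both replicates and 63.99% for HOXB1 to HOXB8. Shared CTCF peaks numbered 5 in HOXB1 to HOXB8, and 5 in flanks of 100 kb. With 1 replicate at a time, H3K4me3 coverage was 46.8% to 51.19% and H3K27ac coverage 37.46% to 38.07%. The cluster ended at HOXB8 and the coding starts were alternatives chosen after seeing the data. The planned cluster from HOXB1 to HOXB9 was not run, since the annotation used does not name HOXB9. No paired analysis was possible because the results come from no test. The lists hold no read counts, which limits what a missing peak shows: H3K27ac at HOXB13 and any mark at HOXB1 were not called, which does not show that they are absent.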
